A study of Mus musculus with 12 samples.

Results

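The genes described here encode matrix proteins that cells secrete and surface proteins that hold or bind them: *Spp1*, *Fn1*, *Thbs1*, *Ecm1*, *Mamdc2*, *Cd44*, *Sdc1*, *Sdc3*, *Sdc4* and *Flrt2*. They were taken by gene symbol, 10 of the 54532 genes in the table of counts, and all 10 were among the 14894 genes tested, those with more than 0.5 CPM (counts scaled to the library's total) in at least 2 of the 12 libraries. *Mamdc2* passed this minimum in 4 vehicle libraries, 4 at 10 µM and 2 at 50 µM, and each of the others in all 12. The list was put together with results of these same comparisons in view, without a numeric threshold. Fold changes and p-values of its members are therefore given as a description from the fit over all genes, and they are not independent evidence.

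The study asked how indole-3-propionic acid (IPA), a tryptophan metabolite made by gut bacteria, changes the myeloid cells that bone marrow produces. Marrow was taken from wild-type C57BL/6 mice, female according to the methods. The cells were cultured for 5 days with GM-CSF and IL-6, cytokines that drive myeloid differentiation, and their poly(A) RNA was sequenced. All 12 cultures held these cytokines and differed in the addition: vehicle (0.1% DMSO), 10 µM IPA or 50 µM IPA, with 4 libraries each. The study took 10 µM as a physiological and 50 µM as a supraphysiological level, and it describes lower cell viability at 50 µM. Whether the 4 libraries of a group came from separate mice or cultures is not given in the labels, so p-values measure the spread between these libraries, which may be technical. Library totals lay from 22417710 to 26442653 counts with vehicle, from 20848854 to 28038612 at 10 µM and from 20451312 to 26925143 at 50 µM. The whole culture was sequenced, so fewer cells of a type and less RNA per cell cannot be told apart.

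Macrophages and monocytes build and read extracellular matrix. Osteopontin (*Spp1*), fibronectin (*Fn1*) and thrombospondin-1 (*Thbs1*) are secreted adhesive proteins. Integrins bind all of them, CD44 (*Cd44*), the main hyaluronan receptor, also binds osteopontin, and CD36 and CD47 bind thrombospondin-1. Syndecans (*Sdc1*, *Sdc3*, *Sdc4*) are membrane proteins whose heparan sulfate chains bind fibronectin, thrombospondin and growth factors, and proteases can cut off their outer part. ECM1 (*Ecm1*) and MAMDC2 (*Mamdc2*) are secreted proteins of the matrix, and FLRT2 (*Flrt2*) is a membrane protein with leucine-rich repeats that binds UNC5 receptors and latrophilins.

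The promoter windows shown are those of *Spp1*, *Sdc3* and *Flrt2*, which were all higher at 10 µM and whose windows lie wholly before the start of the gene in the GENCODE annotation. Each holds the 250 bases before the RefSeq start site on GRCm38.p6, 5′ to 3′ on the plus strand, with motif matches in capitals. The capitals mark a match to the TATA box letters in *Spp1* at chr5:104434861-104435110. They mark matches to GC boxes and cores of the aryl hydrocarbon receptor element in *Sdc3* at chr4:130792287-130792536, and to such a core and an E-box in *Flrt2* at chr12:95691976-95692225.
Spp1: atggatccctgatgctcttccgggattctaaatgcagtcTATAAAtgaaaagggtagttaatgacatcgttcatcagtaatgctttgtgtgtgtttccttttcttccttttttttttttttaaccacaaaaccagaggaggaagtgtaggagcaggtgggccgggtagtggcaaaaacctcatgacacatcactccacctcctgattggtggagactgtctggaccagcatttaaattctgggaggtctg
Sdc3: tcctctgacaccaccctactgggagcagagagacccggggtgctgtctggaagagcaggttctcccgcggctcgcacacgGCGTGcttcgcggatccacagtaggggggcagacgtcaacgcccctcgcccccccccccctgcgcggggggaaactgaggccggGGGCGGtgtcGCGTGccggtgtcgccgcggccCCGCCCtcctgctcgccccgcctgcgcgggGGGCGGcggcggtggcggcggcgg
Flrt2: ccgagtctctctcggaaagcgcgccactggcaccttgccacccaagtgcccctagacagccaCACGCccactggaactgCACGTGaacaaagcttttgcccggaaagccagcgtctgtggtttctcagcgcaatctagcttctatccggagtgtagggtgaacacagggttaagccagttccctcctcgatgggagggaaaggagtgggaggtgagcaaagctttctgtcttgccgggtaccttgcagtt

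RefSeq windows were matched for 7 of the 10 genes, all but *Fn1*, *Thbs1* and *Mamdc2*. Both strands were searched for the GC box (GGGCGG), the core of the aryl hydrocarbon receptor element (GCGTG), the AP-1 site (TGANTCA), the TATA box (TATAAA), the E-box of MiT/TFE factors (CACGTG) and their M-box (CATGTG), and the RBPJ site (GTGGGAA). These motifs occurred in 32.7%, 28.2%, 6.75%, 12.4%, 6.02%, 12.3% and 5.42% of the 32851 windows of the table. The 3 syndecan windows were the richest in GC, with 76.4% for *Sdc3*, 68.0% for *Sdc4* and 66.0% for *Sdc1*, and held 3, 4 and 3 GC boxes and 2, 1 and 1 receptor cores, respectively. The *Spp1* window, with 43.6% GC, held no GC box, and its match to the TATA box letters began at position -211 from the start site. The second *Spp1* window in the table, at chr5:104435942-104436191, held none of the motifs. *Ecm1* had an AP-1 site at -64, a GC box at -42 and a TATA box at -27. *Flrt2* held 1 receptor core at -188 and 1 E-box at -171, and *Cd44*, with 56.4% GC, none of the motifs. A match is a description of the letters and not evidence that a factor binds there.

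Among the members, *Spp1* and *Thbs1* were the most highly expressed. With vehicle, *Spp1* was at 1062 ± 274 CPM per kb of exon (SD, n = 4), rank 29 of 14882 genes with a length, and *Thbs1* at 785.5 ± 65.0 (SD, n = 4), rank 35. By CPM, which does not correct for length, *Thbs1* ranked 9 of all genes. *Fn1* followed with 124 ± 11.3 CPM per kb, *Cd44* with 91.4 ± 4.31, *Sdc3* with 32.8 ± 3.90, *Sdc4* with 21.5 ± 4.93, *Ecm1* with 17.6 ± 1.32 and *Sdc1* with 11.1 ± 0.799 (SD, n = 4 each). *Flrt2* (1.72 ± 0.287) and *Mamdc2* (0.714 ± 0.298) lay below the median of all tested genes, 4.63 CPM per kb. The libraries of *Spp1* and *Thbs1* overlapped in this order, and so did those of *Sdc4* and *Ecm1*, while the other neighbours did not. The order of the means was the same at 10 µM, where *Sdc4* and *Ecm1* did not overlap. At 50 µM *Sdc4*, with 7.93 ± 0.961 CPM per kb (SD, n = 4), had moved below *Ecm1* (19.2 ± 1.04) and overlapped with *Sdc1* (7.25 ± 1.64).

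**Figure D1:**
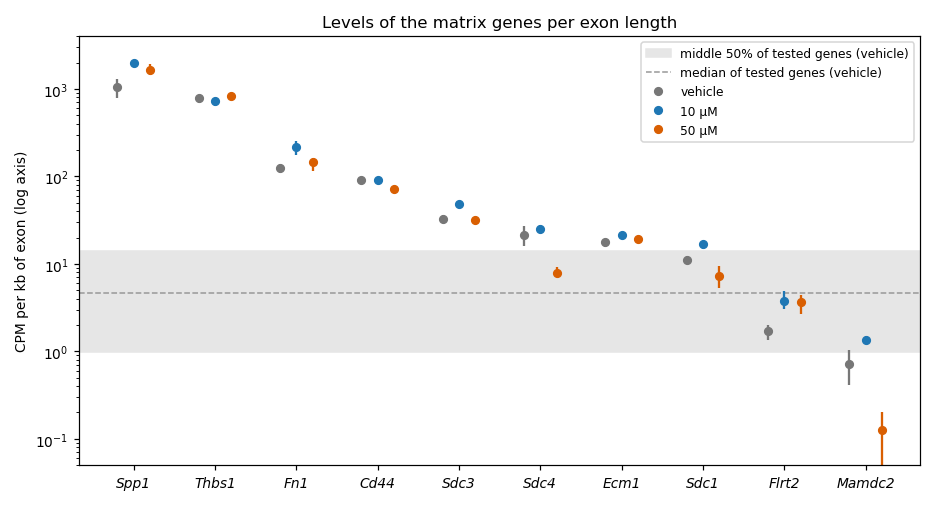
Levels of the 10 matrix genes in CPM per kb of exon, on a log axis, with points for the mean and lines for the range of 4 libraries in each group; the grey band and dashed line give the middle 50% and the median of tested genes with vehicle. *Spp1* and *Thbs1* lie highest, *Flrt2* and *Mamdc2* below the median, and the line of *Mamdc2* at 50 µM leaves the axis because 1 library had 0 counts.

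At 10 µM, 5 of the 10 members had a higher level than with vehicle by edgeR's test (*Spp1*, *Fn1*, *Sdc1*, *Sdc3* and *Flrt2*) and none a lower one. Of all genes, 0.41% passed the test in this comparison, 0.329% as higher and 0.0806% as lower. At 50 µM against vehicle, 6 members passed, *Spp1* and *Flrt2* as higher and *Cd44*, *Sdc1*, *Sdc4* and *Mamdc2* as lower, where 13.5% of all genes passed, 7% as higher and 6.5% as lower. Between the doses, 7 members were lower at 50 µM than at 10 µM, where 7.85% of all genes were lower and 7.52% higher. The libraries of the 2 groups did not overlap for 7 members at 10 µM against vehicle, all higher, where this held for 6.12% of all genes (3.56% higher, 2.56% lower). At 50 µM against vehicle they did not overlap for 7 members, 3 higher and 4 lower, where this held for 20% of all genes (9.45% higher, 10.5% lower), and between the doses for 6 members, all lower, where it held for 20.3% (9.41% higher, 10.9% lower). Because the members were chosen on these contrasts, nothing is read from these shares. The comparisons share libraries, those at 10 µM and 50 µM with vehicle the 4 vehicle libraries.

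**Figure D2:**
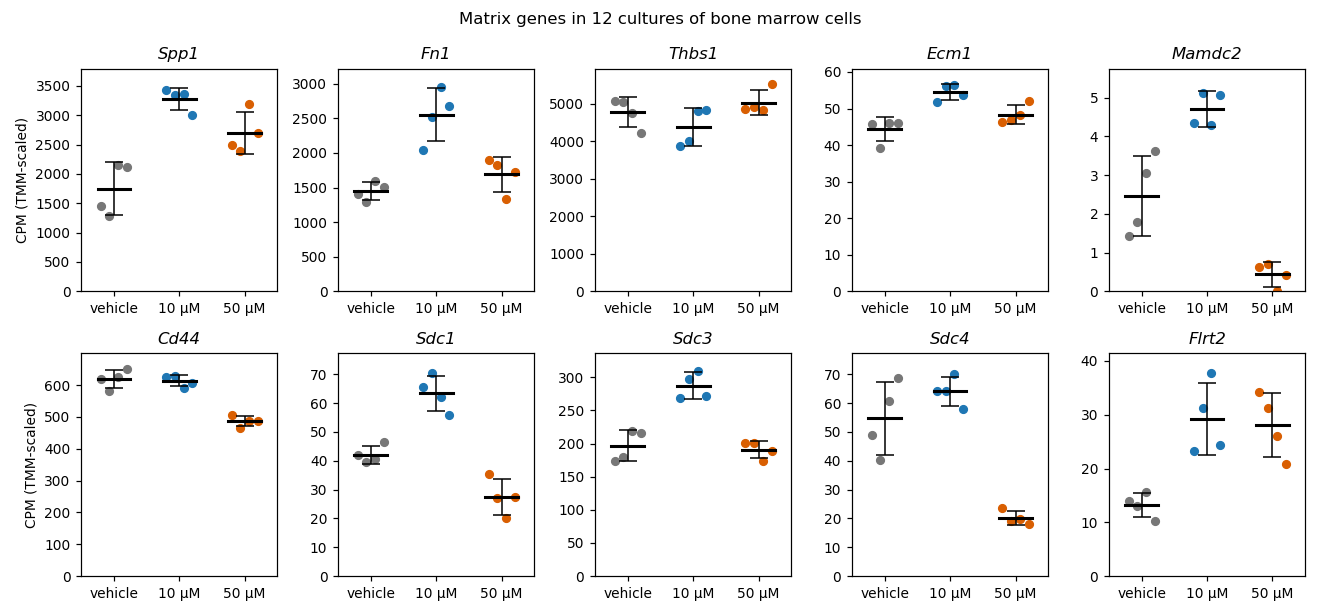
CPM of each matrix gene in every library (points, scaled by TMM), with the mean and SD of 4 libraries as lines, on axes that start at 0. The 10 µM libraries of *Fn1*, *Sdc1* and *Sdc3* lie above the other groups, and the 50 µM libraries of *Sdc4*, at most 23.7 CPM, lie below all others.

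*Spp1* (ENSMUSG00000029304, chromosome 5 of GRCm38, 104435118 to 104441050, plus strand) encodes osteopontin. Its 4 vehicle libraries held 1444.5, 1281, 2155 and 2117 CPM, the 10 µM libraries 3428, 3337, 3359 and 3009 CPM, and the 50 µM libraries 2500.2, 2395, 3193 and 2692 CPM. All libraries with IPA lay above all vehicle libraries, which themselves formed a low and a high pair, while the 2 doses overlapped. At 10 µM the level was 1.88-fold that with vehicle (log2 fold change 0.91, SE 0.15, adjusted p = 0.0311 by edgeR) and at 50 µM 1.55-fold (log2 fold change 0.63, SE 0.16, adjusted p = 0.0173 by edgeR). The 50 µM level was below the 10 µM level by -0.28 on the log2 scale (SE 0.08, adjusted p = 0.0293 by edgeR). That last call was lost without replicate 1, 2 or 3 at 10 µM (adjusted p = 0.0561, 0.0771 and 0.0729 by edgeR) or replicate 1, 2 or 4 at 50 µM (adjusted p = 0.0822, 0.103 and 0.0759 by edgeR), and with all 12 libraries in the fit (adjusted p = 0.202). The call at 50 µM against vehicle was lost without vehicle replicate 1 (adjusted p = 0.0569 by edgeR) or 50 µM replicate 3 (adjusted p = 0.0650 by edgeR). *Gm42793*, a record on the same strand, shares 309 exon bases with *Spp1* but held at most 47 reads in a library, against at least 34533 for *Spp1*. Of 6 neighbours of *Spp1* on its chromosome, among them the bone matrix genes *Ibsp* and *Dmp1*, only *Pkd2* reached the minimum level, and its adjusted p by edgeR was at least 0.734 in the 3 comparisons.

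*Fn1* (ENSMUSG00000026193, chromosome 1, 71585520 to 71653200, minus strand) encodes fibronectin. It held 1407, 1291.5, 1599 and 1503 CPM with vehicle, 2047.5, 2519.7, 2955 and 2686 CPM at 10 µM and 1896, 1830.3, 1330.1 and 1724 CPM at 50 µM. The 10 µM libraries lay above all others, and the 50 µM libraries overlapped with vehicle, with replicate 3 low. The rise at 10 µM was 1.76-fold (log2 fold change 0.82, SE 0.11, adjusted p = 0.0102 by edgeR), the smallest p of the members in this comparison and the 10th smallest of all genes. At 50 µM the log2 fold change against vehicle was 0.23 (SE 0.11, adjusted p = 0.174 by edgeR), or 0.0305 for the adjusted p without 50 µM replicate 3. Against 10 µM, *Fn1* was lower at 50 µM (log2 fold change -0.59, SE 0.11, adjusted p = 0.00195 by edgeR), in each of the 8 fits that left out 1 library as well. On the opposite strand *Apol7d* shares 292 exon bases with *Fn1* and held at most 7 reads.

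*Thbs1* (ENSMUSG00000040152, chromosome 2, 118111876 to 118127133, plus strand) encodes thrombospondin-1. Its libraries held 5077, 5037, 4747 and 4220.4 CPM with vehicle, 3868, 3994, 4796 and 4824 CPM at 10 µM and 4846, 4898.5, 4824 and 5517 CPM at 50 µM. The groups overlapped in all 3 comparisons, and *Thbs1* passed the test in none. The log2 fold change was -0.13 at 10 µM (SE 0.09, adjusted p = 0.793 by edgeR), 0.08 at 50 µM (SE 0.08, adjusted p = 0.536 by edgeR) and 0.20 between the doses (SE 0.08, adjusted p = 0.0914 by edgeR). Without 10 µM replicate 4 the last value passed, with an adjusted p of 0.0412 by edgeR. *Gm29233* on the opposite strand shares 208 exon bases with *Thbs1* and held at most 6 reads.

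*Ecm1* (ENSMUSG00000028108, chromosome 3, 95734147 to 95739569, minus strand) held 45.7, 39.3, 46.0 and 46.2 CPM with vehicle, 51.9, 56.1, 56.3 and 53.8 CPM at 10 µM and 46.3, 46.8, 48.1 and 52.1 CPM at 50 µM. All libraries with IPA lay above all vehicle libraries, at 50 µM by a margin far smaller than the spread within a group. The log2 fold change was 0.30 at 10 µM (SE 0.07, adjusted p = 0.132 by edgeR and 0.0217 by DESeq2) and 0.13 at 50 µM (SE 0.08, adjusted p = 0.319 by edgeR). The test was thus passed by DESeq2 alone among the 3 tools, and not in any of the 8 edgeR fits at 10 µM that left out 1 library. *Mir7014* lies within *Ecm1*, shares 63 exon bases with it and held 0 reads in all libraries.

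*Mamdc2* (ENSMUSG00000033207, chromosome 19, 23302609 to 23448442, minus strand) was the least expressed member. Its raw counts were 38, 48, 68 and 91 with vehicle, 120, 106, 114 and 111 at 10 µM, and 13, 19, 0 and 10 at 50 µM. The 3 groups did not overlap in CPM, and the 50 µM libraries were the lowest. Replicate 3 at 50 µM had 0 counts, which allows a level of up to 0.145 CPM when 3 counts are taken as the limit, for counting error only. The level at 50 µM was 5.44-fold lower than with vehicle (log2 fold change -2.44, SE 0.56, adjusted p = 0.0108 by edgeR) and 10.3-fold lower than at 10 µM (log2 fold change -3.37, SE 0.41, adjusted p = 4.09e-05 by edgeR). At 10 µM the log2 fold change was 0.93 (SE 0.27, adjusted p = 0.231 by edgeR and 0.0473 by DESeq2).

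*Cd44* (ENSMUSG00000005087, chromosome 2, 102811141 to 102901665, minus strand) encodes the hyaluronan and osteopontin receptor CD44. It held 620.1, 580.1, 627 and 650.4 CPM with vehicle, 624, 630.0, 592 and 606 CPM at 10 µM and 505, 466, 486 and 488 CPM at 50 µM. All 50 µM libraries lay below all others, and the 10 µM libraries fell inside the vehicle range. The log2 fold change was -0.02 at 10 µM (SE 0.06, adjusted p = 0.974 by edgeR), -0.34 at 50 µM (SE 0.07, adjusted p = 0.00452 by edgeR) and -0.33 between the doses (SE 0.06, adjusted p = 0.000861 by edgeR). The fall at 50 µM was thus small in size, 1.27-fold, and passed in all 8 fits that left out 1 library.

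*Sdc1* (ENSMUSG00000020592, chromosome 12, 8771323 to 8793715, plus strand), *Sdc3* (ENSMUSG00000025743, chromosome 4, 130792537 to 130826319, plus strand) and *Sdc4* (ENSMUSG00000017009, chromosome 2, 164424247 to 164443887, minus strand) are the syndecans of the list. *Sdc1* held 42.1, 39.4, 40.5 and 46.4 CPM with vehicle, 65.6, 70.4, 62.1 and 55.8 CPM at 10 µM and 35.6, 27.1, 20.3 and 27.4 CPM at 50 µM. None of the 3 groups overlapped, with 10 µM highest and 50 µM lowest. The log2 fold change was 0.59 at 10 µM (SE 0.08, adjusted p = 0.0164 by edgeR), -0.60 at 50 µM (SE 0.13, adjusted p = 0.00948 by edgeR) and -1.20 between the doses (SE 0.13, adjusted p = 1.13e-05 by edgeR).

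*Sdc3*, the most abundant syndecan, held 174, 179, 218 and 215 CPM with vehicle, 269, 298, 309.9 and 272 CPM at 10 µM and 201, 200.2, 174 and 189 CPM at 50 µM. The 10 µM libraries lay above all others, and the 50 µM libraries were inside or just under the vehicle range. The log2 fold change was 0.55 at 10 µM (SE 0.09, adjusted p = 0.0277 by edgeR), -0.04 at 50 µM (SE 0.09, adjusted p = 0.845 by edgeR) and -0.59 between the doses (SE 0.07, adjusted p = 3.21e-05 by edgeR). On the opposite strand *Gm26716* and *Gm12970* share 415 and 48 exon bases with *Sdc3* and held at most 0 and 5 reads.

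*Sdc4* held 48.9, 40.4, 60.6 and 68.9 CPM with vehicle, 64.2, 64.1, 70.2 and 57.9 CPM at 10 µM and 23.7, 19.2, 19.9 and 18.0 CPM at 50 µM. All 50 µM libraries lay far below the other 8, and the 10 µM libraries overlapped with a wide vehicle group. At 50 µM *Sdc4* was 2.70-fold lower than with vehicle (log2 fold change -1.43, SE 0.15, adjusted p = 5.67e-05 by edgeR) and 3.17-fold lower than at 10 µM (log2 fold change -1.67, SE 0.09, adjusted p = 1.97e-08 by edgeR, the 6th smallest p of all genes). At 10 µM the log2 fold change was 0.23 (SE 0.14, adjusted p = 0.724 by edgeR). The falls of *Sdc1* and *Sdc4* at 50 µM passed in all 8 fits that left out 1 library, in each comparison.

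The sum and the composition of the syndecans differed between the groups. Summed over *Sdc1*, *Sdc2*, *Sdc3* and *Sdc4*, the level was 65.6 ± 9.04 CPM per kb with vehicle, 90.2 ± 5.85 at 10 µM and 47.3 ± 4.18 at 50 µM (SD, n = 4 each), and the ranges of the 3 groups did not overlap. *Sdc3* made up 50.2% ± 2.36 of this sum with vehicle, 53.2% ± 1.52 at 10 µM and 67.4% ± 2.45 at 50 µM, while *Sdc4* made up 32.4% ± 3.24, 27.9% ± 0.978 and 16.8% ± 1.5 (SD, n = 4 each). The 50 µM libraries held the highest *Sdc3* shares (63.8% to 69.3%) and the lowest *Sdc4* shares (15.3% to 18.4%) of all 12. *Sdc1* stayed between 12.6% and 19.7% in every library, and *Sdc2* made up less than 1% in each, with 0.882 ± 0.240 CPM with vehicle (SD, n = 4) and no passed test. These shares rest on the same counts as the fold changes and are a description.

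**Figure D3:**
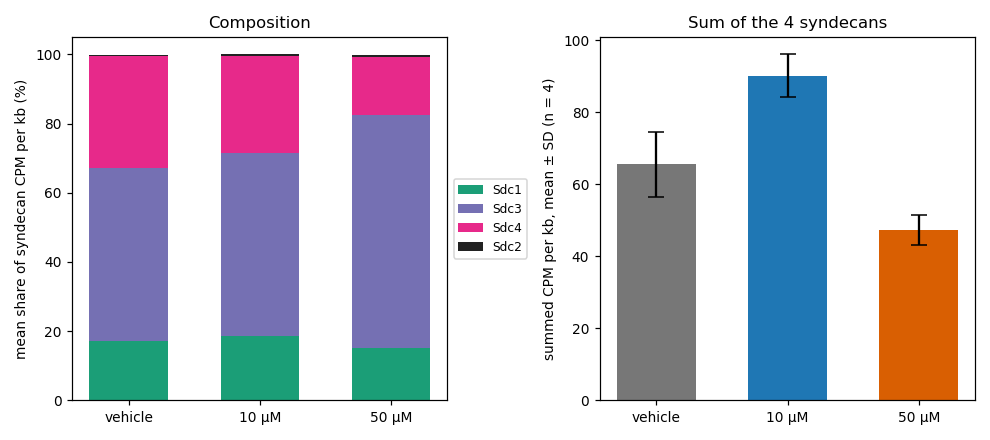
Mean share of each syndecan in the summed CPM per kb (left, %) and the sum itself with SD over 4 libraries (right), by group. The *Sdc3* share is 67.4% at 50 µM against 50.2% with vehicle, and the sum is highest at 10 µM and lowest at 50 µM.

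*Flrt2* (ENSMUSG00000047414, chromosome 12, 95692226 to 95785215, plus strand) held 13.95, 13.1, 15.6 and 10.3 CPM with vehicle, 23.4, 31.3, 37.7 and 24.3 CPM at 10 µM and 34.3, 31.2, 26.1 and 20.9 CPM at 50 µM. All libraries with IPA lay above all vehicle libraries, and the doses overlapped throughout. The rise was 2.2-fold at 10 µM (log2 fold change 1.14, SE 0.17, adjusted p = 0.0172 by edgeR) and 2.14-fold at 50 µM (log2 fold change 1.09, SE 0.16, adjusted p = 0.000539 by edgeR). Between the doses the log2 fold change was -0.05 (SE 0.16, adjusted p = 0.871 by edgeR). The rise at 50 µM passed in all 8 fits that left out 1 library. Of its relatives and partners, 6 of 9 were tested, and 33.3% of the 6 passed at 50 µM against vehicle, 1 higher and 1 lower. Of all genes 13.5% passed, 7% as higher and 6.5% as lower. *Unc5b*, a receptor that FLRT proteins bind, was higher at 50 µM (5.93 ± 1.78 against 22.1 ± 2.46 CPM, SD, n = 4 each, log2 fold change 1.90, SE 0.17, adjusted p = 1.66e-05 by edgeR), while the paralog *Flrt3* was lower (mean 28.7 CPM with vehicle, log2 fold change -0.66, SE 0.11, adjusted p = 0.00195 by edgeR).

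**Figure D4:**
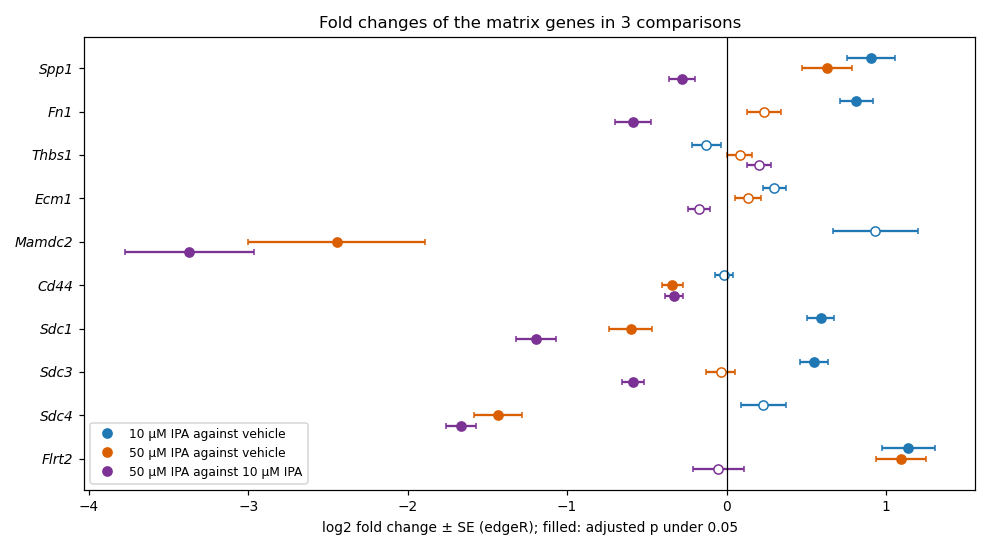
log2 fold change with SE of each matrix gene from edgeR in the 3 comparisons, filled where the adjusted p is under 0.05. *Spp1* and *Flrt2* lie to the right of 0 at both doses, *Sdc1* on opposite sides (0.59 and -0.60), and *Sdc4* and *Mamdc2* reach -1.43 and -2.44 at 50 µM.

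The calls at 10 µM depended on single libraries. For each of the 5 called members all 10 µM libraries lay above all vehicle libraries. Leaving out 1 library could therefore not turn their direction, and nothing is read from its stability. Without vehicle replicate 1, none of the 5 passed (adjusted p from 0.0652 to 0.128 by edgeR), nor did any without 10 µM replicate 2 (adjusted p from 0.0618 to 0.143 by edgeR), and in both cases 7 of the 10 members had an unadjusted p under 0.05. Without 10 µM replicate 3 only *Fn1* passed, with an adjusted p of at most 0.107 by edgeR for the others. Without vehicle replicate 2, *Spp1* and *Fn1* passed and the others reached at most 0.0883 in adjusted p by edgeR. Without 10 µM replicate 1, *Fn1* and *Flrt2* passed and the others reached at most 0.0958 by edgeR. Without 10 µM replicate 4, *Spp1* and *Sdc3* did not pass (at most 0.0536 for the adjusted p by edgeR), and without vehicle replicate 3, *Sdc1* did not (adjusted p = 0.0529 by edgeR). All 5 passed without vehicle replicate 4. Limma-voom called the same 5 members, and DESeq2 these and *Ecm1* and *Mamdc2*. The number of all genes called at 10 µM moved as well, between 4 without 10 µM replicate 2 and 122 without vehicle replicate 4, around 61.

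Genes that bind, make, cut or accompany these proteins were listed by function, 8 lists beside the neighbours of *Spp1*, and read from the same fits. Of 11 tested receptors of osteopontin, fibronectin and thrombospondin, *Cd36* was higher at 10 µM (109.1 ± 14.5 against 174 ± 29.1 CPM, SD, n = 4 each, log2 fold change 0.68, SE 0.12, adjusted p = 0.0450 by edgeR), 1 of 11 where 0.41% of all genes passed. The *Cd36* call was lost without replicates 1, 2 or 3 of vehicle or of the 10 µM group (adjusted p from 0.0677 to 0.197 by edgeR), and without vehicle replicate 4 the integrin subunit *Itgb3* passed as well (adjusted p = 0.0386 by edgeR). At 50 µM *Itga4*, an integrin subunit that binds fibronectin and osteopontin, was lower (103 ± 8.11 against 69.1 ± 9.94 CPM, SD, n = 4 each, log2 fold change -0.57, SE 0.10, adjusted p = 0.00279 by edgeR), 1 of 11 (9.09%) where 13.5% of all genes passed, 6.5% as lower. Without 50 µM replicate 3, 2 receptors passed. The integrin subunits *Itgav*, *Itgb1*, *Itgb3* and *Itga5* and the thrombospondin receptor *Cd47* did not pass against vehicle with all libraries, with log2 fold changes of 0.08, 0.10, -0.29, 0.12 and -0.10 at 10 µM and of -0.14, -0.01, -0.01, -0.02 and -0.16 at 50 µM.

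At 10 µM, no tested gene of 6 lists passed edgeR's test, namely of 21 heparan sulfate enzymes, 11 other proteoglycans, 12 syndecan adaptors, 25 other matrix glycoproteins, 11 hyaluronan genes and 6 relatives and partners of *Flrt2*, where 0.41% of all genes passed. Of these, 3, 2, 1, 6, 1 and 2 genes had an unadjusted p under 0.05, DESeq2 called 1, 0, 0, 2, 1 and 0, and limma-voom none. Without vehicle replicate 4, 1 of the 25 matrix glycoproteins passed. Of 14 sheddases and their inhibitors, *Mmp12*, the macrophage elastase, was higher at 10 µM (log2 fold change 0.45, SE 0.07, adjusted p = 0.0311 by edgeR). The *Mmp12* call was lost without replicates 1, 2 or 3 of either group (adjusted p from 0.0714 to 0.155 by edgeR), and 2 of the list passed without 10 µM replicate 4.

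At 50 µM the sheddase list had the largest share of called genes among the 8 lists, 9 of 14 (64.3%), 7 higher and 2 lower, where 13.5% of all genes passed, 7% as higher and 6.5% as lower. Its median log2 fold change was 0.14, that of all genes 0.01. The lists were chosen with earlier results of these data known, and they differ in level. The lowest mean over all libraries was 17.5 CPM in the sheddase list (*Timp3*) and 0.245 CPM among the other matrix glycoproteins (*Fbn1*). Nothing is therefore read from the rank of the lists. *Mmp2*, a gelatinase, rose from 17.5 ± 3.55 to 40.4 ± 3.78 CPM (SD, n = 4 each, log2 fold change 1.21, SE 0.13, adjusted p = 6.74e-05 by edgeR), *Mmp12* was higher (log2 fold change 0.51, adjusted p = 0.000987 by edgeR) and *Adam17*, which cuts syndecan ectodomains, was lower (log2 fold change -0.40, SE 0.07, adjusted p = 0.00148 by edgeR). The inhibitor *Timp1* was higher (log2 fold change 0.56, adjusted p = 0.0163 by edgeR), but not without 50 µM replicate 2 (adjusted p = 0.0619 by edgeR) or 3 (adjusted p = 0.0566 by edgeR). The count fell to 5 of 14 without vehicle replicate 1, 50 µM replicate 2 or 50 µM replicate 4.

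Of 21 enzymes that build or trim heparan sulfate, 4 were higher and 2 lower at 50 µM (28.6% against 13.5% of all genes), but 3 in all passed without vehicle replicate 3 or 50 µM replicate 2 and 2 without 50 µM replicate 4. *Extl1*, an exostosin-like glycosyltransferase gene, had the largest change of the called enzymes with a mean of at least 1 CPM (0.921 CPM with vehicle and 2.44 at 50 µM, log2 fold change 1.40, SE 0.35, adjusted p = 0.0170 by edgeR), and its call was lost without 50 µM replicate 4 (adjusted p = 0.0732 by edgeR). Xylosyltransferase genes, whose products start the chains, went both ways, *Xylt2* up (log2 fold change 0.48, SE 0.11, adjusted p = 0.0104 by edgeR) and *Xylt1* down (log2 fold change -0.63, SE 0.10, adjusted p = 0.000875 by edgeR). The 6-O-sulfotransferase gene *Hs6st1* was higher (log2 fold change 0.37, SE 0.10, adjusted p = 0.0270 by edgeR), but not without vehicle replicate 1, 2 or 3 or 50 µM replicate 1, 2 or 4 (adjusted p from 0.0558 to 0.0961 by edgeR). Heparanase (*Hpse*), which cuts the chains, had a log2 fold change of 0.08 (adjusted p = 0.674 by edgeR).

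Of 25 other matrix glycoproteins, 3 were higher and 4 lower at 50 µM, 28% against 13.5% of all genes (7% higher, 6.5% lower), and the median was -0.33 on the log2 scale. *Col5a1* (log2 fold change 1.85), *Lama5* (1.82) and *Ltbp3* (1.76) were higher, with adjusted p of 3.61e-06, 0.000165 and 1.69e-06 by edgeR, and *Nid2*, which encodes the basement membrane protein nidogen-2, was lower (log2 fold change -1.12, SE 0.27, adjusted p = 0.0162 by edgeR), though not without vehicle replicate 3 (adjusted p = 0.0565 by edgeR) or 50 µM replicate 2 (adjusted p = 0.0572 by edgeR). *Tgfbi*, an adhesive protein induced by TGF-β, was lower (log2 fold change -0.75, SE 0.08, adjusted p = 3.94e-05 by edgeR). *Tgfbi* fell outside the rule for naming genes and was chosen after its values were seen.

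Of 11 other proteoglycans 2 were higher and 2 lower at 50 µM (36.4% against 13.5% of all genes), and 2 in all passed without vehicle replicate 1 or 3 or 50 µM replicate 3 or 4, and 1 without 50 µM replicate 2. Versican (*Vcan*) was lower (log2 fold change -0.74, SE 0.11, adjusted p = 0.000818 by edgeR). Agrin (*Agrn*) was higher (log2 fold change 0.62, SE 0.17, adjusted p = 0.0298 by edgeR), but not without vehicle replicate 3 or 50 µM replicate 2, 3 or 4 (adjusted p from 0.0557 to 0.0987 by edgeR). Glypican-1 (*Gpc1*) was higher (log2 fold change 0.33, SE 0.08, adjusted p = 0.0149 by edgeR), but not without vehicle replicate 1 (adjusted p = 0.0573 by edgeR) or 50 µM replicate 2 (adjusted p = 0.0566 by edgeR). Of 11 hyaluronan genes 1 passed, 9.09% against 13.5% of all genes, and 2 passed without vehicle replicate 2 or 4. This gene, *Stab1*, which encodes the scavenger receptor stabilin-1, was higher (log2 fold change 0.38, adjusted p = 0.0326 by edgeR), and the call was lost in 6 of 8 fits that left out 1 library, all but those without vehicle replicate 2 or 4 (adjusted p from 0.0540 to 0.0920 by edgeR). None of 12 syndecan adaptors passed at 50 µM against vehicle by edgeR, where 5 had an unadjusted p under 0.05, DESeq2 called 2 and limma-voom 1, and 1 passed without vehicle replicate 1 or 50 µM replicate 1 and 3 without vehicle replicate 4. Syntenin (*Sdcbp*), which binds the tails of syndecans, had log2 fold changes of 0.15 at 10 µM and -0.02 at 50 µM.

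Between the doses, the lists had 3 of 11 receptors called, 6 of 21 heparan sulfate enzymes, 5 of 11 other proteoglycans, 3 of 12 adaptors, 6 of 14 sheddases, 9 of 25 matrix glycoproteins and 3 of 6 relatives and partners of *Flrt2*, where 15.4% of all genes passed. All 3 receptors (*Itga4*, *Itgb7* and *Cd36*) were lower at 50 µM, as were *Fn1* and the 3 syndecans that are members. The *Itga4* call was lost without replicate 2, 3 or 4 of either group (adjusted p from 0.0548 to 0.114 by edgeR), and the *Cd36* call without 10 µM replicate 1 or 2 or 50 µM replicate 3 or 4 (adjusted p from 0.0808 to 0.121 by edgeR). With 1 library left out, the receptor count fell to 1 (without 10 µM replicate 2 or 50 µM replicate 4), that of the proteoglycans to 3 (without 10 µM replicate 1 or 3 or 50 µM replicate 1 or 4) and that of the adaptors to 1 (without 10 µM replicate 2, 3 or 4 or 50 µM replicate 2 or 4).

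Out of the called genes whose mean reached 1 CPM, those with the largest changes between the doses in these lists, given as the log2 difference of 50 µM from 10 µM with every adjusted p under the threshold by edgeR, were the following. Among the heparan sulfate enzymes they were *Extl1* (1.42), *Xylt1* (-0.51), *Hs2st1* (-0.38) and *Extl3* (-0.31), and among the other proteoglycans *Vcan* (-0.96), *Agrn* (0.67), *Cd74* (-0.24) and *Gpc1* (0.22). Glypican-3 (*Gpc3*), at a mean of 0.873 CPM under that limit, had a larger called difference (-2.69) and is named after its values were seen. At 50 µM it held 0.214 ± 0.219 CPM (SD, n = 4), under the 0.5 CPM of the filter, so the size of its difference is uncertain. It had no value when 10 counts were required in every library. The matrix glycoproteins were led by *Lama5* (1.77), *Col5a1* (1.33), *Nid2* (-1.29) and *Ltbp3* (1.20), and the sheddases and inhibitors by *Mmp2* (1.18), *Adam17* (-0.51), *Mmp14* (-0.44) and *Timp2* (-0.39). The called adaptors were *Src* (-0.50), *Synj2bp* (-0.33) and *Ezr* (0.20), and the called relatives and partners of *Flrt2* were *Unc5b* (2.44), *Flrt3* (-0.91) and the latrophilin gene *Adgrl2* (-0.57). With 1 library left out, 5 of these calls were lost in at least 1 fit. *Extl1* did not pass without 10 µM replicate 3 or 50 µM replicate 4 (adjusted p = 0.0526 and 0.0902 by edgeR). *Cd74* was lost without 10 µM replicate 1, 2 or 3 or 50 µM replicate 1 or 4 (adjusted p from 0.0510 to 0.105 by edgeR) and *Gpc1* without 10 µM replicate 1, 3 or 4 or 50 µM replicate 1, 2 or 4 (adjusted p from 0.0521 to 0.100 by edgeR). *Synj2bp* was lost without replicate 2, 3 or 4 of either group (adjusted p from 0.0512 to 0.105 by edgeR) and *Ezr* without any 10 µM replicate or 50 µM replicate 2 or 4 (adjusted p from 0.0504 to 0.118 by edgeR).

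**Figure D5:**
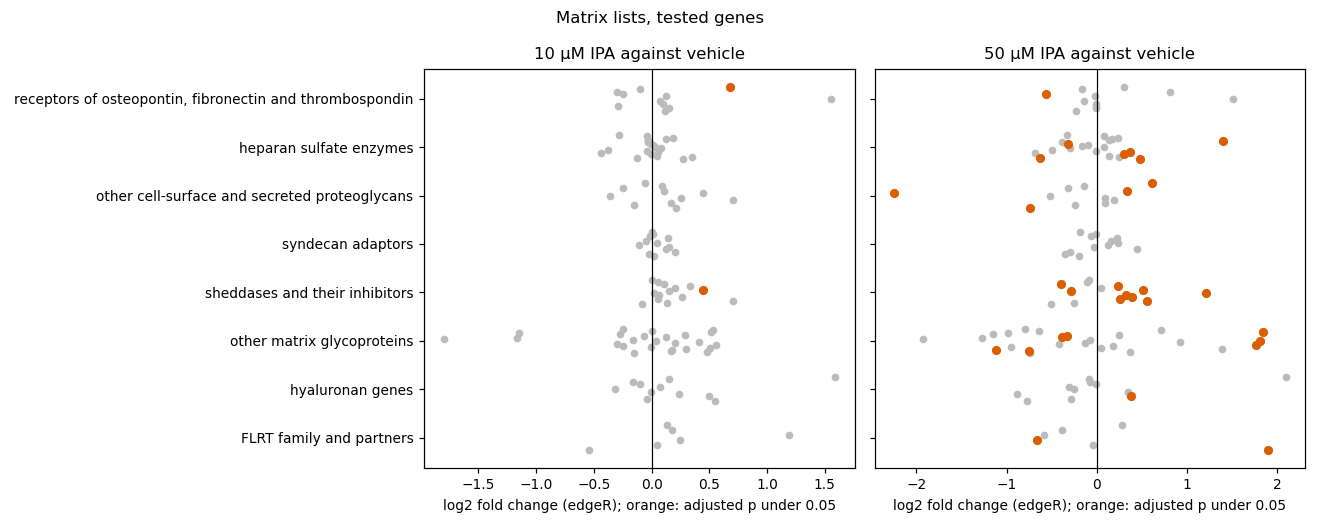
log2 fold change of every tested gene of the 8 matrix lists at 10 µM (left) and 50 µM (right) against vehicle, orange where the adjusted p by edgeR is under 0.05. At 10 µM *Cd36* and *Mmp12* are orange, and at 50 µM 9 of 14 sheddases and inhibitors are.

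The cultures expressed the myeloid genes *Ptprc*, *Itgam*, *Csf2ra*, *Csf2rb*, *Lyz2* and *Cd68*, whose summed level was 9671 to 9999 CPM with vehicle, 10606 to 11664 at 10 µM and 11879 to 13141 at 50 µM. For 10 stromal and fibroblast markers the sum was lower in the 50 µM libraries (10.7 to 13.5 CPM) than with vehicle (at least 16.1 CPM) or at 10 µM (18.2 to 22.4 CPM), 6 of the 10 had a mean under 0.5 CPM in every group, and *Dcn*, *Lum*, *Cxcl12*, *Col3a1* and *Pdgfra* were at 0 in all libraries of at least 1 group. The lowest *Fn1* library held 1291.5 CPM, and the part of stromal cells in the *Fn1* level was not tested. The 4 genes listed for Ly6C-high monocytes (*Ly6c2*, *Ccr2*, *Vcan*, *F13a1*) had a sum of 1239 to 1711.5 CPM with vehicle, 1624 to 1788.5 at 10 µM and 819 to 1054.5 at 50 µM, lowest at 50 µM and overlapping between vehicle and 10 µM. They did not move together at 10 µM. There the mean of *Ly6c2* was below vehicle (534 against 580 CPM). Those of *Ccr2* (505 against 347 CPM), *Vcan* (454 against 393 CPM) and *F13a1* (219 against 135 CPM) were above it. All 4 means were lowest at 50 µM. None of these 4 was at 0, and their part in the levels of the matrix genes was not tested. The 7 macrophage markers summed to 1504 to 1649, 1762 to 1929 and 1436 to 1581 CPM in the same order. The largest part was *Csf1r* (means of 938, 1002 and 738 CPM). *Adgre1* had its highest mean at 50 µM (203, 215 and 324 CPM), and each other gene of this list at 10 µM. The 6 neutrophil markers summed to 11554 to 17562, 11629 to 12884 and 8715 to 13029 CPM. Most of this was *S100a9* (means of 8082, 7251 and 6219 CPM) and *S100a8* (4626, 3923 and 3560 CPM). The mean of *Ly6g* was highest at 50 µM (45.8, 51.0 and 53.9 CPM), where each other gene of this list had its lowest. Megakaryocyte and platelet markers, of interest for *Thbs1*, which platelets hold, summed to 282 to 327, 278 to 345 and 352 to 406 CPM. The higher sum at 50 µM came mainly from *Ppbp* (means of 91.5, 87.4 and 144 CPM) and *Pf4* (102, 134 and 136 CPM). The means of *Gp9* (4.76, 4.30 and 3.67 CPM) and *Gp1ba* (13.1, 11.6 and 10.1 CPM) were lowest there. B and plasma cell markers, of interest for *Sdc1*, which marks plasma cells, summed to 47.7 to 62.2, 59.4 to 77.3 and 74.6 to 107 CPM. Most of this sum was *Ighm* (means of 38.3, 47.9 and 58.6 CPM), while the plasma cell gene *Jchain* had means of 2.09, 1.61 and 1.35 CPM and *Mzb1* of 0.549, 0.592 and 0.800 CPM. Endothelial markers summed to 61.5 to 74.1, 67.4 to 74.5 and 33.1 to 82.7 CPM and mast cell and basophil markers to 172 to 214, 146 to 193 and 145 to 181 CPM, and the part of all these lists in the results was not tested.

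Across the 12 libraries, the 3 genes most like *Spp1* by Pearson's correlation of log2 CPM, out of 12597 genes whose mean was 1 CPM or more, were *Rnf128* (r = 0.97), *Pltp* (r = 0.96) and *Cd68* (r = 0.95). For *Fn1* they were *Tcf4* (r = 0.94), *Acss1* (r = 0.93) and *Dpysl2* (r = 0.93), and for *Flrt2* they were *Ocstamp* (r = 0.92), *Peak1* (r = 0.92) and *Evl* (r = 0.91). The points share their libraries and fall into 3 treatment groups, so these values describe likeness only. The means show it: *Rnf128* went from 52.6 CPM with vehicle to 81.0 at 10 µM and 76.1 at 50 µM, like *Spp1* above vehicle at both doses, *Acss1* went from 11.6 to 16.5 and 12.4 CPM, highest at 10 µM like *Fn1*, and *Ocstamp* from 8.87 to 14.8 and 15.7 CPM, at like levels at both doses as *Flrt2* was.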

How the data were processed

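According to the methods and labels, the authors used Atropos for trimming, HISAT2 2.2.1 for alignment to mm10 and featureCounts 2.0.1 for counting reads per gene of Ensembl GRCm38.92. The strand setting is not given in the sources used here. The deposited values are these raw counts, 1 column per library, with no filter. For 10 µM replicate 3, whose title duplicates another, the number came from the library name.

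Counts were compared with edgeR 4.0.16 in R 4.3.3 (TMM, glmQLFit, glmQLFTest) on the 8 libraries of each comparison, with Benjamini-Hochberg adjustment over 14894 genes and a threshold of 0.05, after a minimum of 0.5 CPM in 2 of 12 libraries. The procedure was tested on simulated data. SE is the log2 fold change divided by the root of F. CPM was scaled by TMM; positions and exon lengths come from GENCODE M21, with exons of all transcripts merged. Within groups no library was a copy of another. The members and lists were chosen with earlier results of these data known. Named were all members, up to 4 called genes per list and comparison by size at a mean of at least 1 CPM, 10 preset receptors and syndecan genes, and the 3 genes most like *Spp1*, *Fn1* and *Flrt2*. The hyaluronan list is not reported between the doses. Alternatives were DESeq2 1.42.0, limma-voom (limma 3.58.1), edgeR with size factors of DESeq2, other filters on low counts (none, or 10 counts in every library), a fit of all 12 libraries, the replicate number as a block, an offset for exon length and leaving out each library.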

Additional observations from a re-analysis of the deposited data

Results flagged for a closer look

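Of the 30 groups of 4 libraries, 10 members in 3 groups, 2 had a library whose distance from its nearest neighbour exceeded the limit of Dixon's test. Chance gives about 1 in 20 groups. *Thbs1* in 50 µM replicate 4 was at 5517 CPM, with the nearest library at 4898.5. *Ecm1* in vehicle replicate 2 was at 39.3 CPM, with the nearest at 45.7. With the filter and TMM scaling of the report, and no block or offset, neither gene passed edgeR's test in any comparison, with all libraries or without the library named. *Thbs1* passed between the doses under some other settings, given with the effects of the processing.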

How the results depend on the processing

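At 10 µM against vehicle, 61 genes were called by edgeR, but 242 by DESeq2, 150 with no filter, 118 with all 12 libraries in the fit and 102 with the offset for exon length, and from 4 to 122 with 1 library left out. The number of members called, 5, ranged from 0 to 5 with 1 library left out and reached 7 with DESeq2. At 50 µM against vehicle 2010 genes were called, and from 1248 (without vehicle replicate 3) to 2689 (without vehicle replicate 4) with 1 library left out. Without 50 µM replicate 2 it was 1313. Between the doses the 2289 calls and the 7 members stayed within 1.5 times, as did the 6 members at 50 µM. The cause of these shifts was not tested.

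With the replicate number as a block, 3 genes and 0 members were called at 10 µM (971 genes and 7 members at an unadjusted p under 0.05), 1830 genes and 6 members at 50 µM, and 2200 genes and 8 members between the doses, *Thbs1* being the added member. Libraries with the same number correlated between -0.24 and 0.14 in their deviations from the group means, and 7 of 24 matched their own number best, so the numbers were not taken as pairs.

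Fold changes changed sign only for genes near 0 in the comparison concerned, where they passed in none of these fits. With 1 library left out, the log2 fold change ranged from -0.046 to 0.0092 for *Cd44* and from -0.023 to 0.077 for *Hpse* at 10 µM. At 50 µM against vehicle it ranged from -0.097 to 0.019 for *Sdc3*, from -0.088 to 0.11 for *Itgb3* (0.0021 with the length offset), from -0.070 to 0.017 for *Itga5* and from -0.094 to 0.068 for *Sdcbp*. Between the doses it ranged from -0.16 to 0.10 for *Flrt2* and from -0.018 to 0.11 for *Hpse*. *Mamdc2* had no value at 50 µM when 10 counts were required in every library. *Thbs1* passed between the doses with no filter and with the length offset. Depth limits *Mamdc2* most, with at most 19 counts per library at 50 µM.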
